A study of Mus musculus with 17 samples.

Results

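The genes described here are those of the cytosolic ribosomal proteins, the protein components of the ribosome that translates messages made in the nucleus. They were chosen by symbol alone, as Rpl or Rps followed by the usual number or letter of a ribosomal protein, leaving out symbols with the pseudogene mark -ps. The rule found 89 of the 56305 gene rows in the count tables, 53 with Rpl symbols (large subunit) and 36 with Rps symbols (small subunit). Of these, 83 are annotated as protein-coding and 6 as pseudogenes, namely Rpl32l, Rpl6l, Rps12l1, Rps3a2, Rps3a3 and Rps4l. Bulk RNA had been sequenced from marrow of C57BL/6 mice that had acute myeloid leukaemia (AML). Every library carried the genotype Dnmt3aR878H/+;Npm1cA/+, that is, a heterozygous point mutation of the DNA methyltransferase gene Dnmt3a and a heterozygous Npm1 allele whose protein, nucleophosmin, is held in the cytoplasm. The 8 control libraries and the 9 libraries labelled Mt1ko share both alleles and differ in a knock-down of Mt1 (metallothionein 1, a zinc-binding protein) made with CRISPR-Cas9. What the controls received in place of that guide, the age and sex of the mice, and how many mice gave the cells were not given in the sources. The libraries are labelled technical replicates, and the authors also deposited 6 sums of them: control 1-3, 7-9 and 14-15, and Mt1ko 4-6, 10-12 and 16-18, named by the libraries they join.

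Each ribosome has a small subunit, which reads the message, and a large subunit, which joins amino acids. Each protein is needed in about equal number, and its gene is usually among the most active of a dividing cell. Ribosomal protein messages begin with a short run of pyrimidines (a terminal oligopyrimidine, or TOP, start), through which mTOR signalling and the protein Larp1 control their translation. Free Rpl5, Rpl11 and Rpl23 can bind Mdm2, the ligase that keeps p53 low, so that a fault in ribosome assembly can raise p53. Nucleophosmin, the product of the gene mutated in these mice, takes part in ribosome assembly in the nucleolus.

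The libraries held 27124722 to 38645072 counts and the sums 64247249 to 106407001. Mt1 was at 348 to 471 CPM (counts scaled to 1 common total per sample) over the control libraries. In 8 of the libraries labelled Mt1ko it was at 41.8 to 87.2 CPM. The library labelled Mt1ko 6 held 326 CPM of Mt1, near the control level, and it is part of the sum Mt1ko 4-6. The sum Mt1ko 10-12 stood apart in its mitochondrial ribosomal RNA and in the number of genes with a count. Mitochondrial ribosomal RNA took 26.0% of its counts, against 8.43% in control 7-9, the next highest, and 4.93% to 5.97% in the remaining sums. In Mt1ko 10-12, 15202 genes had a count, against 18037 to 19765 in all other sums. Markers of monocytes and macrophages were abundant in every sum (7440 to 11291 CPM over 12 genes), led by Lyz2 and Itgam. Those of B cells (at most 4.25 CPM over 8 genes, Ms4a1 and Pax5 at 0) and of T and NK cells (at most 0.496 CPM over 8 genes, Cd4, Nkg7 and Klrb1c at 0) were near 0.

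The start regions of 6 members are shown first, because they belong to genes that differed much or little between the sums described further on. They were chosen after those values were seen. Sequences are from RefSeq on GRCm38.p6, from 100 bases before to 15 after the annotated start, 5′ to 3′ on the gene's strand. Capitals mark the letters of an ETS core, a pyrimidine run or a TATA box on either strand, which are spelled out after the windows. The marks name letters alone, wherever they stand, and do not place a TATA box or a TOP start. In Rpl36a TATAAA lies after the annotated start, and in Rpl11 the pyrimidine run lies 65 bases before it. Pyrimidines at the annotated start of Rps6 differ from the searched letters and are unmarked. The first 3 windows are of Rps7, Rps6 and Rpl13a, which were much lower in control 7-9 than in the other control sums. The last 3 are of Rpl11, Rpl37 and Rpl36a, which were little lower there.
Rps7 (chr12:28635939-28636053, minus): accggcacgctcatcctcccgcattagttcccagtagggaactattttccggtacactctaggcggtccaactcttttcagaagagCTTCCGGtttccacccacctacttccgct
Rps6 (chr4:86857353-86857467, minus): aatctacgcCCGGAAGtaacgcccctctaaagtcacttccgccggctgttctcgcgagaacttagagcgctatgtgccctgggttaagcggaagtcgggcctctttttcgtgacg
Rpl13a (chr7:45128731-45128845, minus): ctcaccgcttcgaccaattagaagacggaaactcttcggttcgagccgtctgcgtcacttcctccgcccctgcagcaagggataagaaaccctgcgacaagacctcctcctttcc
Rpl11 (chr4:136053379-136053493, minus): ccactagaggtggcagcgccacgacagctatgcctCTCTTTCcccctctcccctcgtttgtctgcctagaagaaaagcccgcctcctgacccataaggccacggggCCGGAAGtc
Rpl37 (chr15:5116513-5116627, plus): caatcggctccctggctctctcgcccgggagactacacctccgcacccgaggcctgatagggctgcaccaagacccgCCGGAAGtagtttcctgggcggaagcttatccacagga
Rpl36a (chrX:134585554-134585668, plus): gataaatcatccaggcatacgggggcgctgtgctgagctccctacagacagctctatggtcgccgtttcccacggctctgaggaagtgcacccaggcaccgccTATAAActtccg

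CCGGAAG stands in windows of both kinds, so these 6 windows are not told apart by it. Of the 80 members at 1 CPM or more in every sum, 60 had a RefSeq promoter entry, and the full windows of 250 bases before to 50 after the start were searched on both strands. CCGGAAG, the core bound by ETS factors, was in 25 of the 60 (41.7%), against 9.9% of 27025 genes. The pyrimidine run CTCTTTC, counted also where it stood on the other strand, was in 18 (30.0%), against 9.3%. AAGATGGC, the core bound by YY1, was in 6 (10.0%), against 3.2%. The TATA box TATAAA was in 7 (11.7%), against 15.7%. A gene with several annotated starts was counted where any of its windows matched, and the 27025 genes were not limited to those expressed here. A match is a description of letters in the window and no sign of a factor bound there.

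Ribosomal protein messages were present at high level, but unevenly. Of the 89 members, 80 reached 1 CPM in every sum, from genes on 19 chromosomes, and 3 (Rpl39l, Rpl10l and Rpl32l) had no count in any library. Levels of different genes were compared as CPM per kilobase of annotated exon, as mean ± SD over the 6 sums. Rplp1, a stalk protein that recruits elongation factors, was highest at 1282 ± 368. Rpl23a was at 884 ± 230, the stalk base Rplp0 at 879 ± 186, Rpl29 at 806 ± 166 and Rpsa, which is also known as the laminin receptor precursor, at 789.1 ± 169. The order of these 5 is not firm, since it changed with the length used. On the length of the longest coding transcript, a scale added after the data were seen, it was Rpl23a (1337), Rpsa (1291), Rplp1 (1282), Rplp0 (1074) and Rpl29 (1074). The lowest tested members were Rpl3l (0.228), Rpl6l (1.05), Rpl22l1 (3.46) and Rpl5 (14.9), which binds 5S rRNA in the large subunit. On the coding transcript length Rpl22l1 was at 12.5, and Rpl5, at 28.7, lay above Rpl7l1 (20.7) and Rps15a (25.6), so Rpl5 was among the lowest 4 on the first scale only.

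Rpsa gave the largest single count. It was at 2864, 2365 and 2494 CPM in control 1-3, 7-9 and 14-15, and at 3034, 1525 and 2727 CPM in Mt1ko 4-6, 10-12 and 16-18. Values of other members below follow the same order of sums. Rplp0 was at 1752, 1381 and 1474 CPM in the controls and 1692, 894 and 1561 CPM in Mt1ko. Rplp2, the partner of Rplp1 in the stalk, was at 634, 520 and 568 CPM, then 638, 408 and 590 CPM. In all 3 genes the sum Mt1ko 10-12 was lowest, control 7-9 was second lowest, and the groups overlapped.

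The share of all counts that fell in the 89 genes was 2.98%, 2.19% and 2.74% in the control sums and 2.95%, 1.72% and 2.74% in the Mt1ko sums. The group means thus differed by less than the sums within a group. Single libraries ranged from 2.04% to 3.19% (median 2.52%) in the controls and from 1.62% to 3.02% (median 2.80%) in Mt1ko. Without mitochondrially encoded genes in the total, the shares were 3.17%, 2.42% and 2.96% in the controls and 3.15%, 2.38% and 2.92% in Mt1ko. On that scale the Mt1ko minus control difference went from -0.17 to -0.03 percentage points, and control 7-9 and Mt1ko 10-12 lay side by side. In bulk RNA, fewer cells of a type and less RNA per cell cannot be told apart.

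**Figure D1:**
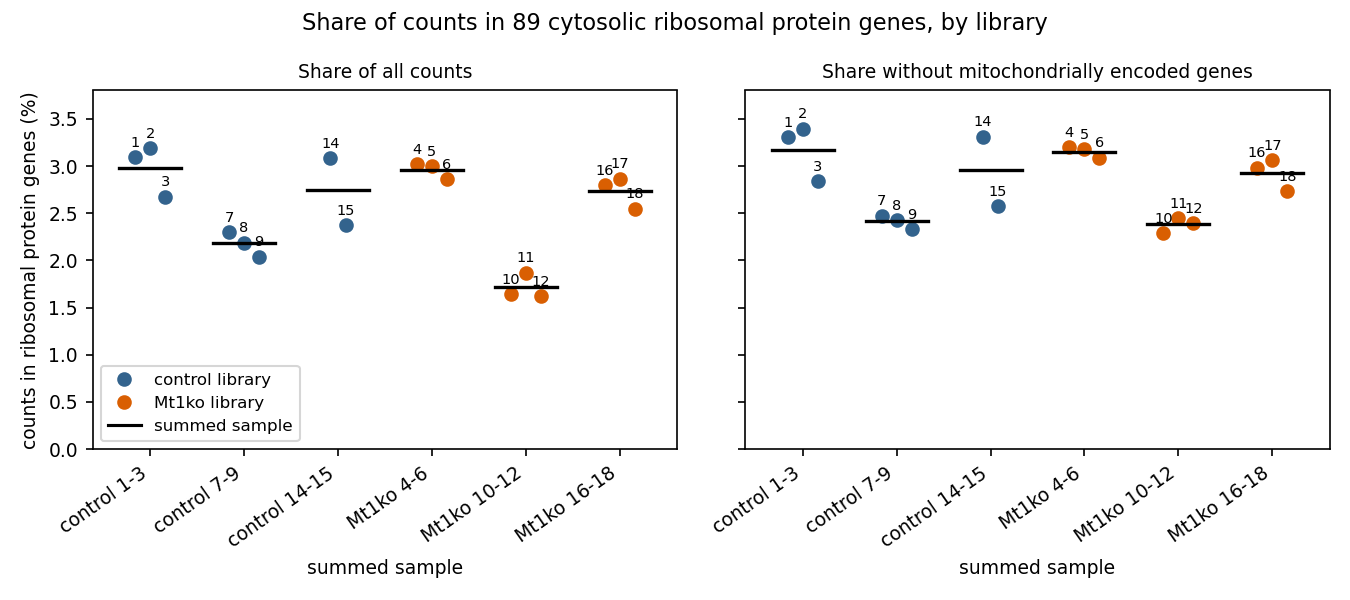
Percent of counts in the 89 ribosomal protein genes (y axis, from 0) for each library, numbered and placed by its summed sample (x axis), with blue points for control, orange points for Mt1ko and a black line for the sum; the left panel uses all counts and the right panel leaves out mitochondrially encoded genes. Libraries of control 7-9 and Mt1ko 10-12 sit lowest on the left (1.62% to 2.30%), and control library 15 lies close above them (2.37%).

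The plot of shares also shows spread inside the sum control 14-15, where library 14 had 3.09% and library 15 had 2.37%. The Rps to Rpl ratio of counts was 0.66, 0.64 and 0.64 in the control sums and 0.66, 0.59 and 0.65 in the Mt1ko sums. Its lowest library values, 0.57, were in Mt1ko libraries 11 and 12.

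The study's question is what differs in this leukaemia when Mt1 is knocked down. No ribosomal protein gene passed the test between Mt1ko and control. Of the 89 members, 82 passed the filter on low counts: the 80 at 1 CPM or more in every sum, and Rpl3l and Rpl6l. Log2 fold changes were above 0 in 45 and below 0 in 37, with a median of 0.02, beside -0.01 over all tested genes. The test was edgeR's quasi-likelihood F test on the 3 control and 3 Mt1ko sums, with Benjamini-Hochberg adjustment over all tested genes. It called 0 of 82 members and 0 of 16666 genes (0% called) at an adjusted p under 0.05, and limma-voom called 0 genes and DESeq2 1 gene (Mt1). At an unadjusted p under 0.05 it had 0 members, against 171 genes (1.03%). Nothing states that the sums came from separate mice, so these p-values measure the spread between the sums, which may be technical.

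Over the 78 members whose average log2 CPM was 5 or higher, 77 had a 95% interval that stayed inside 1 log2 unit on either side of 0. Of the 82 tested, 39 stayed inside 0.5 units. Among all tested genes these counts were 4688 of 4955 at that level and 2968 of 16666. The same fit did not call Mt1 itself (log2 fold change -1.85, SE 0.34, edgeR adjusted p = 1). Large subunit genes had 31 values above 0 and 19 below (median 0.02), and small subunit genes had 14 above and 18 below (median -0.03).

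Rps12, of the small subunit, had the smallest p. It was at 107, 79.9 and 93.7 CPM in the controls and 126, 82.1 and 125 CPM in Mt1ko. The groups overlapped, with Mt1ko 10-12 inside the control range. Its log2 fold change was 0.35 (SE 0.17; unadjusted p = 0.071, edgeR adjusted p = 1). This fold change counts Rps12 alone. All compared stretches (100%) of the pseudogene Rps12l1 also occur in Rps12. Control library 9, part of the lowest control sum, held 99.5 CPM of Rps12l1 beside 83.8 CPM of Rps12. Mt1ko library 17 held 22.7 CPM of Rps12l1 beside 136 CPM of Rps12, and the other libraries held no Rps12l1. The part of read assignment in the difference of Rps12 was not tested.

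Rpl15, a large subunit protein, was at 179, 119 and 166 CPM, then 191, 153 and 173 CPM, with a log2 fold change of 0.28 (SE 0.18). The pseudogene Rpl6l (1.94, SE 1.17) and Rpl3l (1.83, SE 1.73), a form of Rpl3 best known from muscle, had larger values at very low levels. Rpl6l did not exceed 1.82 CPM in any sum and Rpl3l did not exceed 1.12 CPM.

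Among the lower values, Rps27l was at 22.2, 32.7 and 26.2 CPM in the controls and 26.1, 15.6 and 15.7 CPM in Mt1ko. This paralog of Rps27 is a known p53 target. Both Mt1ko 10-12 and 16-18 lay below the controls and Mt1ko 4-6 lay among them, giving a log2 fold change of -0.38 (SE 0.25). Rpl5 (-0.26, SE 0.37), Rpl36a (-0.22, SE 0.17) and Rpl24 (-0.21, SE 0.22) followed. In these 3 genes Mt1ko 10-12 was lowest, as at 20.4 CPM of Rpl5 where the other sums held 56.9 to 76.8 CPM.

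Of the tested members, 2 (Rpl31 and Rpl6l) had every Mt1ko sum above every control sum on the TMM scale, against 2.74% of tested genes. The opposite order held for 0 members, against 4.36% of tested genes. Rpl31, at the exit of the large subunit's tunnel, was at 121, 108 and 118 CPM, then 125, 120 and 122 CPM. On this plain CPM scale Mt1ko 10-12 lay below control 1-3, so the groups overlapped, and the log2 fold change was 0.20 (SE 0.13).

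**Figure D2:**
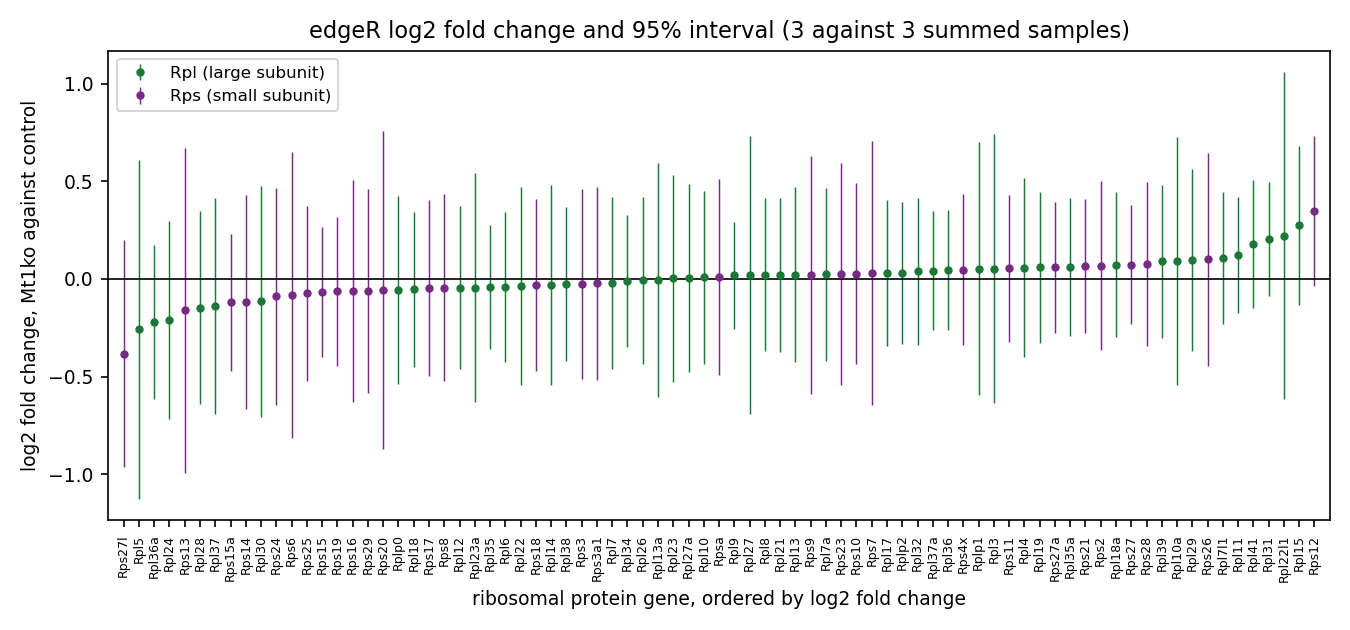
Log2 fold change of Mt1ko against control (y axis) with its 95% interval for 79 of the 80 ribosomal protein genes at 1 CPM or more in every sum, ordered along the x axis; green is large subunit, purple is small subunit. Every interval crosses 0, from Rps27l (-0.38) to Rps12 (0.35).

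The ranked plot of fold changes rests on which sums are used. With control 7-9 left out, 13 of 82 members were higher in Mt1ko, and without Mt1ko 4-6, 15 of 83 were. Without Mt1ko 10-12 it was 77 of 83, and without control 1-3, 71 of 83. The median moved between -0.13 and 0.13 and turned sign, while no member was called in any of these fits. Leaving out both control 7-9 and Mt1ko 10-12, chosen after the data were seen, gave 40 of 82 higher and a median near 0 (-0.0037). Scaling by total counts alone gave 8 of 82 higher with a median of -0.09. That scaling moved all tested genes to a median of -0.12, so relative to it the members were slightly above. Mt1ko 4-6 holds the library labelled Mt1ko 6. Without that library, 46 of 82 members were higher and 0 were called.

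The larger differences lay between sums of 1 group. Each sum was set against the mean of the other sums of its own group, in TMM-scaled log2 CPM, over the same 78 abundant members. Control 7-9 was lower in 78 of 78 members (median -0.37), where 60% of 4955 tested genes at that level were lower (median -0.07). Mt1ko 10-12 was lower in 70 of 78 (median -0.45), against 64.4% of genes (median -0.17). For the other sums, which such a low sum raises by construction, the count was 2 of 78 in control 1-3 (37.3% of genes), 17 in control 14-15 (44.5%), 4 in Mt1ko 4-6 (33%) and 20 in Mt1ko 16-18 (41.6%). With 1 sum on one side there is no test of these differences.

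The count for control 7-9 was 77 or 78 of 78 under RLE, upper quartile, total count and mitochondria-free TMM scaling. That for Mt1ko 10-12 was 68, 68, 77 and 69 of 78 in the same order. Total count scaling also moved all genes of Mt1ko 10-12 to a median of -0.42. In plain CPM, control 7-9 and Mt1ko 10-12 were the lowest pair of the 6 sums in 71 of the 80 members at 1 CPM or more, against 26.6% of 10900 genes. The 9 others were Rpl11, Rpl22l1, Rpl31, Rpl36a, Rpl37, Rpl38, Rpl41, Rps15 and Rps27l.

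**Figure D3:**
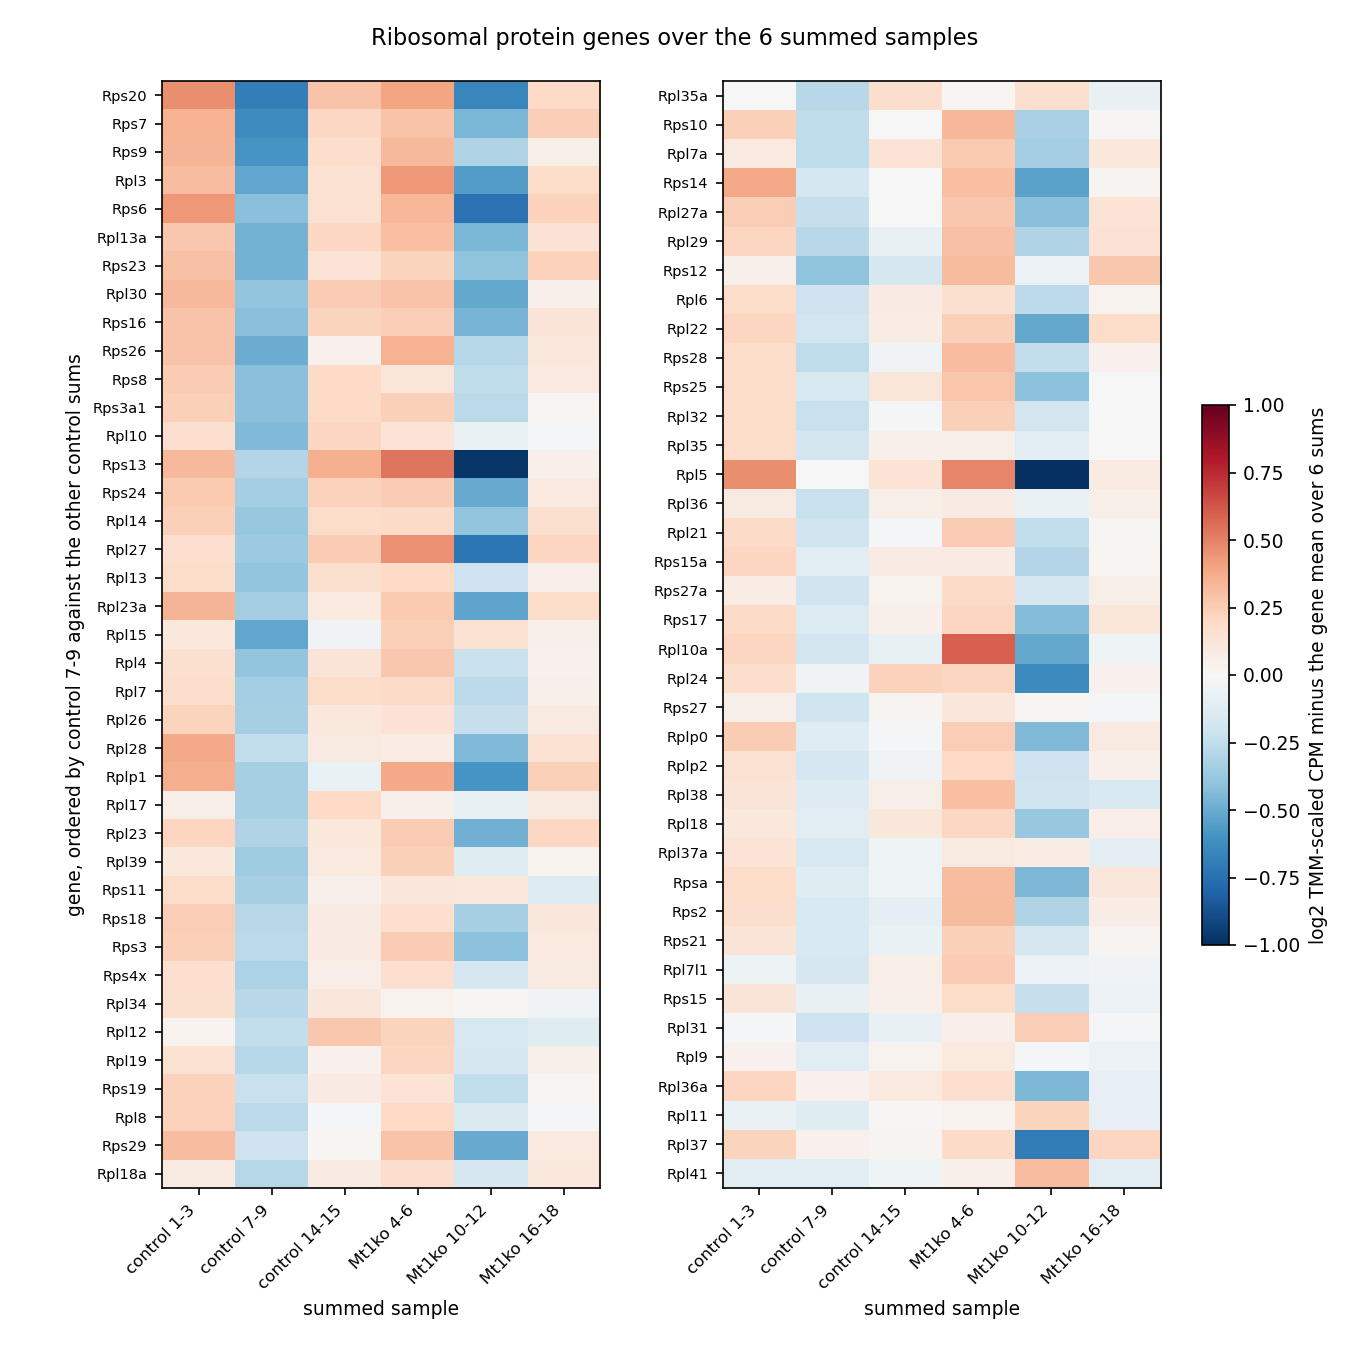
Heat map of 77 of the 78 abundant ribosomal protein genes (rows, ordered by control 7-9 against the other control sums) over the 6 summed samples (columns); colour is log2 TMM-scaled CPM minus the gene's mean over the sums, blue below and red above, limited to 1 unit each way. The columns of control 7-9 and Mt1ko 10-12 are mostly blue, and Rpl41, Rpl11 and Rpl31 at the foot are pale or red in Mt1ko 10-12.

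Small subunit genes lead the heat map. Rps20 had the lowest value of the 78 in control 7-9, with 188, 86.2 and 169 CPM in the controls and 174, 71.5 and 156 CPM in Mt1ko. Its level in control 7-9 was 1.07 log2 units below the other control sums, and in Mt1ko 10-12 it was 0.95 units below the other Mt1ko sums. Rps20 sits in the head of the small subunit. All 6 libraries of these sums held 66.8 to 102 CPM, below every other library (138 CPM or more).

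Rps7 was at 409, 213 and 379 CPM, then 382, 194 and 382 CPM. Rps9, which helps keep decoding accurate, was at 531, 285 and 484 CPM, then 512, 282 and 438 CPM. In both genes control 7-9 and Mt1ko 10-12 lay close to each other and well under the rest.

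Rps6 is the substrate of S6 kinase, the classic readout of mTOR signalling. The gene lies on the minus strand of chr4:86854660-86857412 (GRCm38, GENCODE vM21). It was at 628, 354 and 526 CPM in the controls and 568, 230 and 545 CPM in Mt1ko. Control 7-9 lay 0.72 and Mt1ko 10-12 lay 1.02 log2 units below the other sums of their groups. Control library 15 (391 CPM) lay beside the control 7-9 libraries (329 to 390 CPM), far from its partner library 14 (650 CPM).

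Rps19, the gene most often mutated in Diamond-Blackfan anaemia, differed less. It was at 336, 250 and 308 CPM, then 306, 199 and 289 CPM. Rps13 had a range of 1.50 log2 units over the sums, at 80.6, 53.7 and 83.8 CPM, then 90.7, 27.2 and 66.5 CPM. The libraries behind its low sum held 53.3, 28.2 and 0 CPM in Mt1ko 10, 11 and 12 (a count of 0 allows up to 0.10 CPM), and the other libraries held 34.1 to 104 CPM.

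Among large subunit genes, Rpl3, which reaches toward the peptidyl transferase centre, was at 506, 290 and 462 CPM, then 536, 229 and 464 CPM. Rpl13a was at 724, 443 and 707 CPM, then 720, 363 and 665 CPM. Rpl23 was at 508, 363 and 481 CPM, then 507, 259 and 506 CPM. All 3 had the same order of low sums as the small subunit genes.

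Rpl5 and Rpl11 enter the ribosome together, yet their levels did not follow the same order. Rpl5 was at 76.8, 56.9 and 62.3 CPM, then 76.1, 20.4 and 59.1 CPM, a range of 1.67 log2 units over the sums. The libraries behind its low sum held 11.4, 40.0 and 7.58 CPM. Rpl11 was at 212, 209 and 229 CPM, then 221, 215 and 210 CPM.

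Relative to the other Mt1ko sums, Rpl11 in Mt1ko 10-12 was thus 0.25 log2 units higher on the TMM scale, where Rpl5 was at -1.46. On total counts alone, Rpl41 was the only one of the 78 members that was not lower there. Rpl41, the smallest ribosomal protein, was at 361, 370 and 385 CPM, then 392, 399 and 361 CPM. Rpl37 was at 170, 153 and 151 CPM, then 162, 74.2 and 169 CPM, so that it was low in Mt1ko 10-12 and near the other controls in control 7-9 (-0.09).

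**Figure D4:**
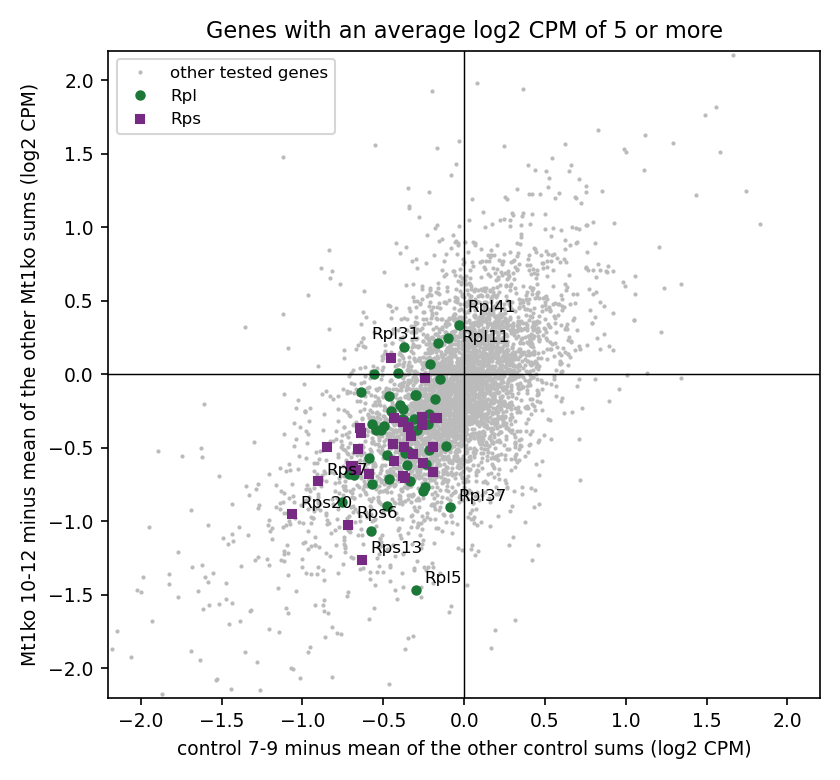
Each point is a tested gene whose average log2 CPM is at least 5: x, control 7-9 minus the mean of the other control sums; y, Mt1ko 10-12 minus the mean of the other Mt1ko sums (TMM-scaled log2 CPM; axes cover 2.2 units each way and leave out points beyond). Green circles (Rpl) and purple squares (Rps) all lie left of 0 and mostly below it, with Rpl5 lowest at -1.46 and Rpl41, Rpl11 and Rpl31 above 0.

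In the scatter of both differences, the correlation across the 78 members was 0.40 (Pearson) and 0.37 (Spearman), against 0.59 and 0.56 across 4955 genes. These are descriptions: the genes share the same 6 sums and are not independent. The spread of the members followed the sums more than the libraries. The median SD of log2 CPM over the sums was 0.25 in the members and 0.19 in all genes, and over libraries within sums it was 0.21 in the members and 0.25 in all genes.

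Library 15 of control 14-15 also stood low. It was below library 14 in 77 of 78 members (median -0.43), against 60.9% of genes (median -0.08). No value of Mt1 marked it, at 352 CPM against 399 CPM.

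**Figure D5:**
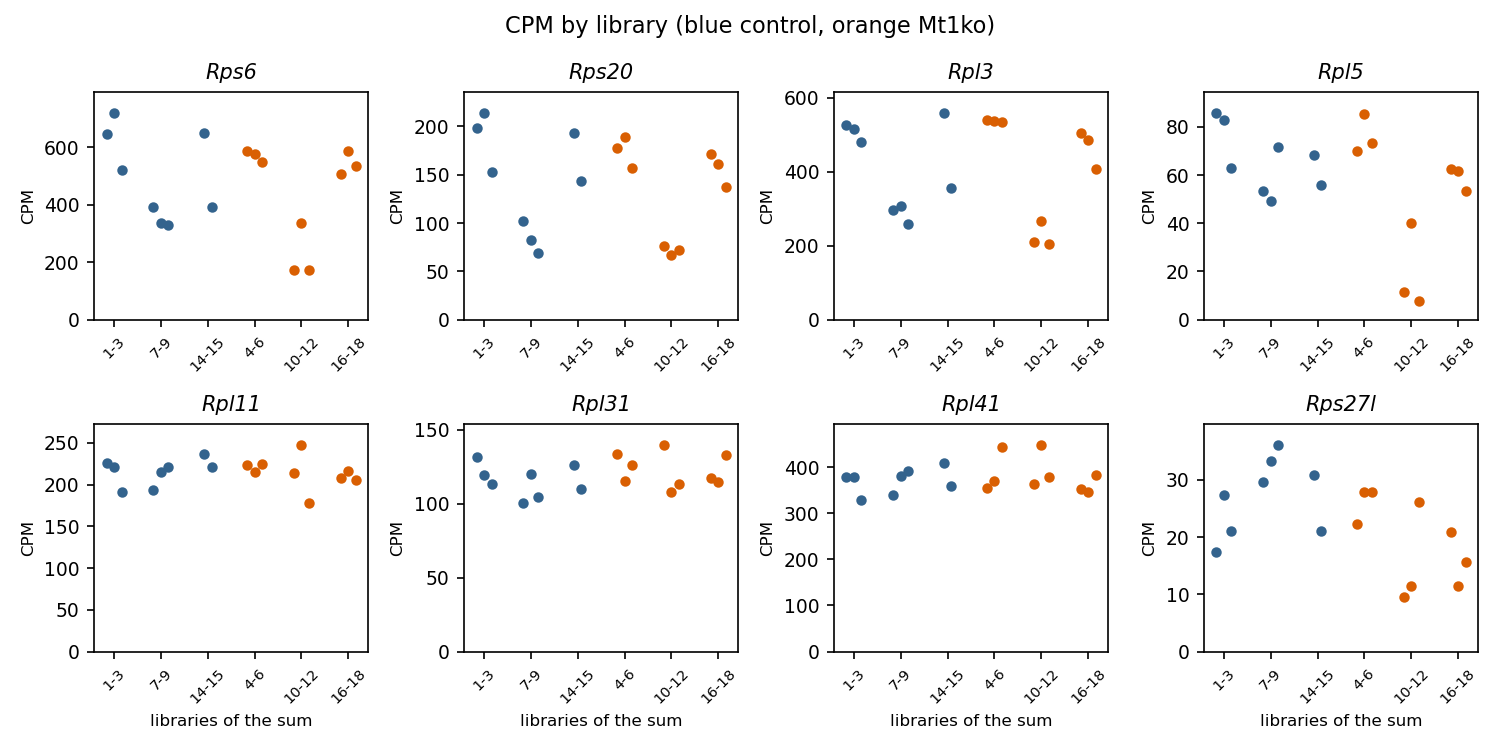
CPM (y axis, from 0) of 8 ribosomal protein genes in each library, grouped by summed sample on the x axis, blue control and orange Mt1ko. Rps6, Rps20 and Rpl3 are low in libraries 7-9 and 10-12, Rpl5 is lowest in libraries 10 and 12, and Rpl11, Rpl31 and Rpl41 show no such step, with Rps27l highest in libraries 8 and 9 (33.4 and 36.2 CPM).

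The library plot shows that the low sums were low in all of their libraries for Rps20 and Rpl3, not in a single one. Marker lists of other cell types differed over the sums, not all in the same way. The summed level of 12 mast cell, basophil and eosinophil markers was 4502 CPM in Mt1ko 10-12 and 874 CPM in control 7-9, and 246, 708, 413 and 171 CPM in control 1-3, control 14-15, Mt1ko 4-6 and Mt1ko 16-18. Cpa3, a mast cell protease, led that list with Tpsb2, while Prss34, Prg2 and Epx were at 0 everywhere. Erythroid markers (11 genes found, Epor at 0) summed to 145 CPM in control 7-9, of which Tfrc, which many dividing cells express, gave 96.5 CPM, and to between 52.3 and 88.1 CPM elsewhere. Neutrophil markers (12 genes, Camp at 0) summed to 161 CPM in Mt1ko 10-12 and to 233 CPM in control 7-9, against 302 to 412 CPM elsewhere. Of these, Mmp8 alone gave 145 and 198 CPM. Elane (1.17 and 7.06 CPM), Ctsg (0 and 1.42 CPM) and Prtn3 (5.16 and 8.99 CPM) were lower in both than in any other sum. Mpo was lowest in Mt1ko 10-12 (0 CPM) and highest in control 7-9 (6.14 CPM). Stromal and endothelial markers (8 genes, Cdh5 and Emcn at 0) were at 77.7 CPM in Mt1ko 10-12, of which Pecam1 alone gave 75.8 CPM, and 15.5 to 25.4 CPM elsewhere. Megakaryocyte markers (10 genes, Gp9 at 0) were at 116 CPM in control 7-9, 278 CPM in Mt1ko 10-12 and 173 to 265 CPM elsewhere. They did not move together. In Mt1ko 10-12, Itga2b (157 CPM), Vwf (61.5 CPM), Gp1ba (27.1 CPM) and Itgb3 (5.96 CPM) were at their highest of the sums. Pf4 (26.8 CPM) and Ppbp (0 CPM) were at their lowest there. The part of these cell types, and of the mitochondrial RNA given above, in the ribosomal protein levels was not tested.

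Other genes of translation were read from lists, and none held a gene called between Mt1ko and control (edgeR adjusted p = 1 for each list's smallest). Differences of control 7-9 and Mt1ko 10-12 from the other sums of their groups are given on the TMM scale. The symbol rule leaves out 4 ribosomal protein genes of the list, among them Fau and Rack1. Their log2 fold changes were above 0 in 1 and below 0 in 3, with a median of -0.08. All 4 were lower in control 7-9 (median -0.52) and in Mt1ko 10-12 (median -0.45) than in the other sums of their groups, as most members were.

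The list of elongation factors also holds Tpt1, which is not itself such a factor. Its 7 genes had 2 values above 0 and 5 below in Mt1ko against control, and all 7 were lower in both sums (medians -0.42 and -0.57). Tpt1, the translationally controlled tumour protein, was 0.90 log2 units below the other controls in control 7-9 and 1.31 below the other Mt1ko sums in Mt1ko 10-12. Of 29 initiation factors, 15 had values above 0, and 25 were lower in control 7-9 (median -0.19) and 24 in Mt1ko 10-12 (median -0.32). Of 13 other TOP messages, some of them genes already counted, 9 had values above 0, with 12 lower in control 7-9 and 11 in Mt1ko 10-12.

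On the TMM scale, the list of genes that control TOP translation did not follow that order as a whole. Of 10 (among them Larp1, Mtor, Rptor and the S6 kinase genes Rps6kb1 and Rps6kb2), 6 had values above 0 in Mt1ko against control, and 3 were lower in each of the low sums (medians 0.10 and 0.09). Mtor, the kinase itself, was 0.42 log2 units above the other controls in control 7-9 and 0.07 above in Mt1ko 10-12. Larp1 was at -0.07 and -0.32. In plain CPM, Mtor (64.9 CPM) and Larp1 (158 CPM) were lowest in Mt1ko 10-12. The list's median against the control mean was -0.24 log2 units there and 0.08 in control 7-9 on that scale. Of 12 chaperones and importers of ribosomal proteins, 8 had values above 0, 8 were lower in control 7-9 and 12 in Mt1ko 10-12.

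Of 5 checkpoint genes that link ribosomal proteins to p53, 1 had a value above 0, and 2 were lower in each of the low sums. Mdm2, the partner of free Rpl5 and Rpl11, was 0.60 log2 units above the other controls in control 7-9 and 0.46 above the other Mt1ko sums in Mt1ko 10-12. The rest of that list did not share this. In the same order, Trp53 was at -0.46 and 0.38, Mdm4 at -0.34 and 0.09, Cdkn1a at 0.20 and -0.07, and Rps27l at 0.42 and -0.12. Of 8 rescue and quality control genes, 3 had values above 0, and 5 were lower in each of the low sums. Of 7 host genes of small nucleolar RNAs (snoRNAs), 3 had values above 0, with 5 lower in control 7-9 and 3 in Mt1ko 10-12.

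Several ribosomal proteins have a second gene. Rps27 was at 51.8 to 65.0 CPM over the sums and Rps27l at 15.6 to 32.7 CPM, and Rps27l was highest in control 7-9, where 78 of 78 abundant members were low. Rpl22 was at 234 to 469 CPM and Rpl22l1 at 4.69 to 8.63 CPM. Rpl7 was at 330 to 551 CPM and Rpl7l1, which acts in ribosome assembly, at 43.8 to 63.8 CPM. Rpl36al lies outside the symbol rule and had 122 ± 26.1 CPM in the controls and 114 ± 16.5 CPM in Mt1ko (SD, n = 3 sums each, TMM-scaled), beside Rpl36a at 65.9 to 126 CPM.

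The copies known mainly from testis or muscle were nearly silent. Rpl39 was at 73.1 to 110 CPM and Rpl39l had no count. Rpl10 was at 319 to 501 CPM and Rpl10l had no count. Rps4x was at 216 to 330 CPM, and Rps4l had 0.0102 CPM in control 7-9 and no count in the other sums. Rpl3l stayed at or below 1.12 CPM beside Rpl3 at 229 to 536 CPM.

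These values depend on how reads were assigned among near-identical copies, since the tables also hold 322 pseudogene rows with -ps symbols. In the 80 members at 1 CPM or more, a median of 35.5% of the 50-base windows of their transcripts also occurred in another gene, and 22 members shared over 50%. The shared part was 85.5% for Rpl36a, 84.6% for Rps6, 7.4% for Rps20 and 2.8% for Rps3. The part of read assignment in the low sums was not tested. Of the protein-coding members, 30 carry snoRNA genes inside their borders (58 in all, 26 of them in an annotated exon), and total RNA reads from those cannot be told from the host's where exons overlap.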

How the data were processed

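Whole-number counts per gene, not normalized, were deposited by the authors for 17 libraries and as 6 sums, which equalled their libraries in every gene. Libraries were made from total bone marrow RNA with a stranded kit for small inputs, per the labels' protocols. Trimmomatic 0.35, RSEM 1.3.3 and GRCm38 (mm10) are named in the submitters' processing notes. The aligner, the strand setting and how whole numbers were reached were not given in the sources used here. Where a symbol had several rows, the row with the larger total was used.

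The members and the lists were chosen with earlier results of these data known. The sums were tested with edgeR 4.0.16 (R 4.3.3; filterByExpr, TMM, quasi-likelihood F test, called at an adjusted p under 0.05), which was checked on simulated data. TMM factors were 1.00 to 1.05, and 0.85 in Mt1ko 10-12. Log2 CPM used a prior count of 2. Standard errors are the log2 fold change over the root of F. Alternatives used limma 3.58.1 and DESeq2 1.42.0.

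The rule for named genes took Mt1, any called member, the 4 largest rises, falls and ranges, the 4 highest and lowest members per length, listed paralog pairs, the stalk proteins, Rpl5, Rpl11, Rpl23, Rps6 and Rps19, and at most 3 genes a list by smallest p. Other named genes were chosen after their values were seen. Marker sums used plain CPM. Lengths and coordinates are from GENCODE vM21. The titles number libraries 1 to 18, and library 13 was not analysed here. Values of a few single genes are not reported here.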

Additional observations from a re-analysis of the deposited data

Results flagged for a closer look

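Library values were examined within each group for 34 named genes, both shares of counts in the members, and the Rps to Rpl ratio. Of these 74 groups of values, 5 held a library far from the rest, and all 5 were of single genes. The rule's rate of about 1 flag in 20 groups assumes independent, normally spread values. Libraries of the same sum, and rows at or near 0 such as Rps12l1 and Rpl3l, do not meet that. The rate therefore does not apply to these flags. The pseudogene Rps12l1 was at 99.5 CPM in control library 9 and 22.7 CPM in Mt1ko library 17, and at 0 in the other 15 libraries. All of its 50-base windows (100%) also occur in Rps12, whose own values in those libraries were 83.8 and 136 CPM. Rpl3l was at 0.975 CPM in control library 1 (next 0.326 CPM) and at 3.49 CPM in Mt1ko library 10 (next 0.603 CPM). Rpl22l1 had 0 counts in Mt1ko library 12 (next 5.91 CPM). That library had 0 counts for 928 of 10900 genes at 1 CPM or more in every sum, and for 6 of 3657 genes whose median in the other libraries was at least 50 CPM.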

How the results depend on the processing

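Under 20 alternative fits the count of members called stayed at 0, and the smallest adjusted p of any member was 0.981. Over all genes, 1 gene was called with DESeq2, with the 17 libraries entered singly, with the sum as a random effect (limma-voom, correlation 0.18), without library 6, and without library 6 and libraries 10 to 12, and in each the gene was Mt1. With control 7-9 and Mt1ko 10-12 both left out it was 1 gene, mt-Co3. Of 215 values of 11 named members under alternatives, 208 kept their direction and 7 reversed. The rule named members partly for large fold changes in the main fit, and all fits draw on the same libraries. That count therefore does not speak for the members at large. Over all tested members, those higher in Mt1ko went from 8 of 82 (total counts only) to 78 of 83 (without library 6 and libraries 10 to 12). With library 6 and libraries 10 to 12 left out, the log2 fold change was 0.11 for Rpl5, 0.016 for Rpl24 and 0.21 for Rps13. With the random effect it was -0.28 for Rpl22l1. Leaving out 1 sum at a time gave -0.62 to 0.091 for Rpl5, -0.39 to 0.0063 for Rpl24 and -0.53 to 0.15 for Rps13, with the positive values without Mt1ko 10-12. The same step gave -0.41 to 0.21 percentage points for the Mt1ko minus control share of counts. The cause of these reversals was not tested. No paired analysis was possible because the groups share no replicate numbers. Intervals and limits from counts of 0 speak only of counting error and of how these sums vary.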
